A study of Mus musculus with 18 samples.

Results

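Natural killer (NK) cells that carried both CD49a and CD49b were compared with NK cells that carried CD49b alone, both sorted from the same kind of tissue, liver metastases (LM). The comparison used 6 bulk RNA-seq samples, 3 of LM CD49a+ NK cells (lin- CD45+ NKp46+ CD49a+ CD49b+) and 3 of LM CD49a- NK cells (lin- CD45+ NKp46+ CD49a- CD49b+), out of 12 sorted lymphocyte samples and 18 samples in the whole series. The 6 samples were chosen by the cell population given in their labels, and no measured value entered the choice. The donors were female C57BL/6J mice of 8 to 10 weeks, with no genetic change labelled, in which MC38, a mouse colon adenocarcinoma line from the same strain, had been injected into the spleen, from where it seeds the liver, and tissue was taken on day 20. Each sample was a pool of sorted cells from 6 to 8 LM or metastasis-free liver (MFL) specimens, so the p-values below measure the spread between pools. The pools came from 3 separate sorts, per the study; whether a replicate number stands for one sort is not given in the sources used here. An injected line is a model of liver colonization rather than of a spontaneous primary tumor. The other 6 lymphocyte samples, 3 of NK cells (CD49a- CD49b+) and 3 of type 1 innate lymphoid cells (ILC1, CD49a+ CD49b-) from MFL of injected mice, entered the same statistical fit and served as the comparison at the second site. The MFL CD49a+ cells lack CD49b, so the CD49a+ populations of both sites were gated differently.

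CD49a, the product of *Itga1*, is the α1 integrin chain that pairs with β1 to bind collagen, and it is a surface marker of tissue-resident lymphocytes such as liver ILC1s. CD49b, the α2 chain encoded by *Itga2*, marks circulating conventional NK cells, whose maturation is driven by the transcription factors Eomes, T-bet and Zeb2 and is accompanied by gain of CD11b (*Itgam*) and of Ly49 receptors for MHC class I. NK cells can gain CD49a in tumors and in other tissues rich in TGF-β, and the features that such cells share with ILC1s and with NK cells have been a question of the field.

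The 6 LM samples held 8795721 to 14386834 estimated counts and 9608 to 12601 genes with at least 10 counts, and the replicates of one LM population differed from each other by a median of 0.688 to 0.845 on the log2 scale. The biological coefficient of variation was 1.09 among the CD49a+ and 1.25 among the CD49a- samples of LM, against 0.517 in MFL NK cells and 0.657 in MFL ILC1s. Both LM replicate 2 samples stood apart from the others of their population in early response genes and in transcripts encoded by the mitochondrial genome. *Nr4a1*, an immediate early gene of lymphocyte activation, was at 845, 222 and 3007 CPM (counts scaled to a common library total with TMM factors) in CD49a+ replicates 1, 2 and 3 and at 2049, 542 and 3145 CPM in CD49a- replicates 1, 2 and 3. The part of this difference in the results below was not tested, other than by leaving both replicate 2 samples out. In all sentences that follow, the 3 values of a population are given in the order of its replicates.

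Of the sort genes, *Itga1* was at 156, 142.5 and 105 CPM in CD49a+ and at 11.4, 17.1 and 5.83 CPM in CD49a- NK cells. *Itga2*, which both gates required, was at 65.8, 102 and 219 CPM in CD49a+ and at 241, 305 and 333 CPM in CD49a- NK cells. The populations overlapped for neither gene, and neither difference is a finding, since CD49a and CD49b protein defined the gates. *Ncr1*, which encodes NKp46, ranged from 495 to 790.3 CPM over the 6 samples, and *Tbx21*, which encodes T-bet, from 320.1 to 573 CPM, with overlapping populations for both genes. *Eomes* was at 499.9, 658 and 902 CPM in CD49a+ and at 800.2, 887 and 1147 CPM in CD49a- NK cells, a log2 fold change of -0.46 ± 0.41 (SE, adjusted p = 0.73). In the MFL ILC1s, *Eomes* was at 40.2, 13.2 and 7.58 CPM, so that both LM populations lay above them.

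Markers of the sorted cells and of other cell types were read in every sample. The NK and ILC1 marker list had all 10 members below 0 in CD49a+ NK cells, none of them called by edgeR (2 lower unadjusted, 1 by DESeq2), and summed to 5816, 6134 and 6308 CPM in CD49a+ against 7032, 8709 and 10250 CPM in CD49a- NK cells, without overlap. Of the macrophage and Kupffer cell markers, *Adgre1*, *Clec4f*, *Vsig4* and *Marco* were at 0 in all 6 samples and the whole list summed to 0 to 41.2 CPM, the highest value being in CD49a+ replicate 2. *S100a8* and *S100a9* of the neutrophil list were at 0, as were *Cd4* and *Cd8b1* of the T cell list and *Cd79b* and *Pax5* of the B cell list. The T cell list summed to 319 to 500.0 CPM in CD49a+ and 160.2 to 298 CPM in CD49a- NK cells, and the B cell list to 117 to 124 CPM and 15.9 to 101 CPM, both without overlap. The monocyte list summed to 448 to 657 CPM and 256 to 614 CPM, within which *Plac8* was at 109.6, 33.9 and 56.0 CPM in CD49a+ against 0.446, 4.54 and 8.11 CPM in CD49a- NK cells. The endothelium list, nearly all of it *Pecam1*, summed to 221 to 282 CPM and 79.2 to 259 CPM. Erythroid and platelet markers, mostly globin genes, summed to 594 CPM in CD49a- replicate 2 against 82.3 to 242 CPM in the other samples, and fibroblast markers to 48.2 CPM in CD49a- replicate 1 against 0 to 10.7 CPM. The tumor epithelium list summed to 32.2, 39.9 and 55.9 CPM against 40.4, 9.53 and 27.7 CPM, with overlap. Of its 4 tested members, *Cdh1* and *Epcam* lay above 0 and *Lgals4* and *Muc1* below, *Cdh1* at 14.3, 18.4 and 51.5 CPM against 0, 1.99 and 3.15 CPM and *Lgals4* at 5.81, 6.41 and 0 CPM against 25.96, 0.111 and 6.22 CPM, while *Krt8* was at 0. In MFL, *Cdh1* was at 74.7, 46.8 and 46.0 CPM in ILC1s and at 0, 0.147 and 0 CPM in NK cells. The part of the transcripts of these marker lists in the differences described here was not tested. In bulk samples, fewer cells of a type and less RNA per cell cannot be told apart.

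The question was which genes differ between CD49a+ and CD49a- NK cells that share the metastasis. Of 13594 genes tested in a quasi-likelihood fit over the 12 lymphocyte samples (edgeR), 9 were higher in CD49a+ NK cells and 10 were lower at a false discovery rate of 10%, that is 0.0662% and 0.0736% of the genes tested. None of these 19 genes overlapped between the 3 and 3 samples. Because 3 against 3 samples cannot give an exact two-sided permutation p under 0.1, single genes rest on the fit across all genes. At an unadjusted p under 0.05, 805 genes lay higher and 774 lower. Every CD49a+ sample lay above every CD49a- sample for 777 genes or 5.72%, and the reverse held for 558 genes or 4.1%. Full separation in either direction has an exact two-sided permutation p of 0.1. Shares of this size can thus arise from the order of the samples alone, and they serve below only as the reference for gene lists.

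**Figure D1:**
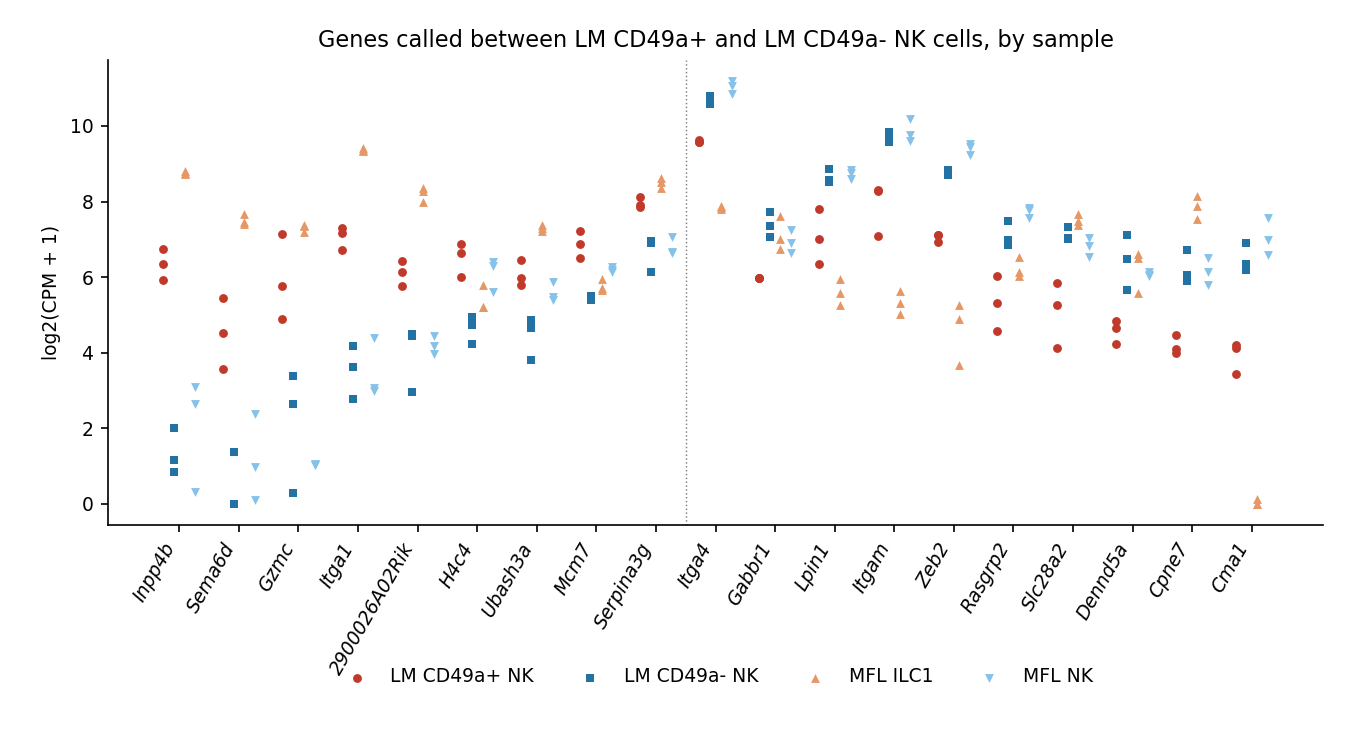
Expression as log2(CPM + 1) of the 19 genes that differed between the CD49a+ and CD49a- NK cells of LM at a false discovery rate of 10%. Each point is 1 sample, with 3 samples per population, and the MFL ILC1s and MFL NK cells are drawn beside the LM populations. The 9 genes that were higher and the 10 that were lower in CD49a+ NK cells show no overlap between the LM populations.

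Of the genes higher in CD49a+ NK cells, *Inpp4b*, a phosphatase that removes a phosphate from PI(3,4)P2 and so limits PI3K signaling, was at 107, 59.5 and 80.8 CPM in CD49a+ and at 3.01, 1.22 and 0.788 CPM in CD49a- NK cells. That is a log2 fold change of 5.65 ± 0.72 (adjusted p = 0.00307), and the lowest CD49a+ sample lay far above the highest CD49a- sample. *Ubash3a*, a phosphatase-like protein that dampens antigen receptor signaling and is best known from T cells, was at 86.9, 54.5 and 61.5 CPM against 24.3, 28.1 and 12.9 CPM. Its log2 fold change was 1.64 ± 0.33 (adjusted p = 0.0933), or 3.11-fold. The gene lies on chromosome 17 from 31426847 to 31465866 on the plus strand of GRCm39.

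The granule and serpin genes *Gzmc* and *Serpina3g* were higher as well. *Gzmc*, which encodes granzyme C, was at 139, 53.0 and 28.6 CPM against 9.36, 0.222 and 5.2 CPM, so the CD49a+ samples ranged widely among themselves (log2 fold change 3.90 ± 0.76, adjusted p = 0.0853). *Serpina3g*, an intracellular serine and cysteine protease inhibitor induced in activated lymphocytes, was at 278, 231 and 239.5 CPM against 118, 69.1 and 123 CPM. Its log2 fold change was 1.27 ± 0.25 (adjusted p = 0.0827), or 2.41-fold. *Serpina3g* (chromosome 12, 104202386 to 104208203, GRCm39) has close paralogs in its cluster, as *Gzmc* has among the granzymes, and the assignment of reads among such copies is uncertain.

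*Sema6d*, a transmembrane semaphorin, was at 42.9, 10.9 and 21.9 CPM in CD49a+ NK cells and was listed at 0 in 2 CD49a- samples and at 1.57 CPM in the third (log2 fold change 5.41 ± 1.10, adjusted p = 0.0933). The fitted size rests on very few CD49a- counts. *2900026A02Rik*, a gene with no assigned function that the rule for named genes leaves out by its name and that is given here because it was called, was at 69.8, 53.7 and 85.2 CPM against 21.7, 20.6 and 6.85 CPM. Its log2 fold change was 2.09 ± 0.36 (adjusted p = 0.0402), or 4.25-fold.

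The remaining genes called higher, *Mcm7* and *H4c4*, belong to DNA replication. *Mcm7*, a subunit of the MCM helicase that licenses and unwinds replication origins, was at 147, 117 and 89.5 CPM in CD49a+ and at 41.5, 44.6 and 44.0 CPM in CD49a- NK cells. The 3 CD49a- samples lay within a few CPM of each other and the log2 fold change was 1.44 ± 0.29 (adjusted p = 0.0887), or 2.71-fold. *H4c4*, one of the clustered genes for histone H4 that are expressed with DNA synthesis, was at 116, 98.2 and 63.7 CPM against 25.6, 17.6 and 29.8 CPM, with a log2 fold change of 1.92 ± 0.38 (adjusted p = 0.0853), or 3.80-fold. The histone genes of a cluster are nearly identical in their coding sequence, so the share of reads given to *H4c4* is uncertain. The 250 bases upstream of the first listed start of each gene are shown because these were the only genes of the S phase, G2/M and histone lists that were called (RefSeq, build GRCm38.p6; H4c4 on the plus strand of chr13:23581318-23581567 and Mcm7 on the minus strand of chr5:138171884-138172133). Capitals mark matches to the CCAAT box (CCAAT, or ATTGG on the other strand) and the TATA box (TATAAA).
H4c4: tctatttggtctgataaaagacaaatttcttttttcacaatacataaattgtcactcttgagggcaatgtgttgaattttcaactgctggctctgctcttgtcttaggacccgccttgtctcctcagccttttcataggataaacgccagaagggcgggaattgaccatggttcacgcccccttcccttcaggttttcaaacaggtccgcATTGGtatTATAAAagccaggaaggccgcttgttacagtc
Mcm7: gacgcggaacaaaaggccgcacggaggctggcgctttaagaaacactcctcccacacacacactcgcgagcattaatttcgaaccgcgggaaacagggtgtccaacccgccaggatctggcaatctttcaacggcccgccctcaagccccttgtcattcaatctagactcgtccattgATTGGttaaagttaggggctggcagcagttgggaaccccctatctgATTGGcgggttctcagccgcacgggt
Neither stretch held TTTCGCGC or TTTGGCGC, which 0.256% and 0.417% of all 32851 promoter stretches of this length held. These were the only 8-base forms of the E2F motif searched for, on both strands. Other forms were not searched for, so whether either stretch holds an E2F site was not tested. CCAAT was present in 33.8% of all 32851 stretches and TATAAA in 12.4%. Of the 18 called genes with an entry, 3 higher and 2 lower genes held CCAAT in any of their listed stretches. This count is per gene and the 33.8% is per stretch, and no difference of the called genes from all promoters is read from it.

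Among the 10 genes lower in CD49a+ NK cells were regulators and adhesion molecules of mature NK cells. *Zeb2*, a zinc-finger repressor that drives the last steps of NK cell maturation, was at 119.9, 139 and 137 CPM in CD49a+ and at 415, 433.5 and 458 CPM in CD49a- NK cells. Replicates of both populations lay close together, and the log2 fold change was -1.72 ± 0.30 (adjusted p = 0.0402), that is 3.30-fold lower. *Itgam*, the α chain of Mac-1, was at 136, 314 and 309 CPM against 921, 758 and 821 CPM (log2 fold change -1.72 ± 0.29, adjusted p = 0.0402). *Itga4*, the α4 chain that binds VCAM-1 and fibronectin, was at 764, 756 and 793.5 CPM against 1763, 1757 and 1544 CPM (log2 fold change -1.13 ± 0.20, adjusted p = 0.0402). *Zeb2* (ENSMUSG00000026872.19) lies on chromosome 2 from 44873644 to 45007464 on the minus strand of GRCm39.

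Signaling and metabolic genes made up most of the remaining genes called lower. *Rasgrp2*, a calcium- and diacylglycerol-regulated exchange factor that activates Rap1 and through it integrins, was at 22.9, 64.8 and 38.5 CPM against 179, 124 and 114 CPM (log2 fold change -1.72 ± 0.33, adjusted p = 0.0827). *Gabbr1*, a subunit of the metabotropic receptor for GABA, was at 61.5, 61.5 and 61.5 CPM against 211, 133 and 163 CPM (log2 fold change -1.46 ± 0.28, adjusted p = 0.0827). The 3 CD49a+ values of *Gabbr1* were thus almost the same, while the CD49a- values ranged more widely. *Slc28a2*, a concentrative nucleoside transporter that takes up purine nucleosides, was at 37.5, 56.5 and 16.3 CPM against 159, 127 and 131 CPM. Its log2 fold change was -1.92 ± 0.34 (adjusted p = 0.0504), or 3.77-fold lower. *Lpin1*, a phosphatidate phosphatase of glycerolipid synthesis, was at 80.6, 128 and 223 CPM against 381.5, 466 and 364.5 CPM (log2 fold change -1.49 ± 0.30, adjusted p = 0.0933), with the CD49a+ samples spread over a wider range than the CD49a- samples. *Dennd5a*, a DENN-domain protein of Rab-dependent vesicle traffic, was at 27.8, 17.9 and 24.3 CPM against 49.5, 87.7 and 136 CPM (log2 fold change -1.97 ± 0.39, adjusted p = 0.0933).

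*Cma1*, which encodes mast cell chymase, a serine protease stored in granules, was at 9.78, 17.5 and 16.4 CPM in CD49a+ and at 71.3, 80.7 and 118 CPM in CD49a- cells (log2 fold change -2.63 ± 0.42, adjusted p = 0.0268), or 6.17-fold lower. *Cpne7*, which encodes a calcium-dependent membrane-binding copine, was at 21.3, 14.8 and 16.2 CPM against 65.2, 58.9 and 103 CPM. Its log2 fold change was -2.12 ± 0.31 (adjusted p = 0.0118), or 4.35-fold lower. The CD49a+ samples lay close together for both genes. *Cma1* lies on chromosome 14 from 56178908 to 56182132 on the minus strand and *Cpne7* on chromosome 8 from 123843492 to 123861927 on the plus strand of GRCm39.

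These calls differed in how far they depended on single samples. *Itga1*, *Inpp4b* and *Cpne7* stayed called whichever LM sample was left out, with adjusted p up to 0.0115, 0.0188 and 0.0485, whereas each of the other 16 lost its call in 1 to 4 of the 6 cases. Without CD49a+ replicate 1, 3 genes were called higher and 2 lower, and without CD49a- replicate 3, 210 and 57. The main fit and the fits with 1 LM sample left out included the MFL samples, whose spread was smaller than that of the LM samples. The p-values of these fits, also those of the 19 calls, thus rest in part on the MFL spread. In the 6 LM samples alone, *Itga1* and *Inpp4b* (edgeR adjusted p = 0.0401 for each) and *Zeb2* (adjusted p = 0.0855) were called. *Cpne7* was not called there (adjusted p = 0.922). No gene was called by limma-voom with sample weights. All 19 genes kept their direction in all 13 alternative settings.

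The MFL samples allowed the difference between CD49a+ and CD49a- cells to be set beside that at another site, with no sample in common. In MFL, 188 genes (1.38% of those tested) were higher in ILC1s than in NK cells and 228 (1.68%) were lower. Of the 9 genes higher in LM CD49a+ NK cells, 7 were also called higher in MFL ILC1s, which is 77.8% of the LM list and 3.72% of the MFL list. *Itga1* is among these, and its protein defined the gate at both sites; without it the overlap was 6 of 8, or 75%. Of the 10 lower genes, 6 were also called lower, which is 60% and 2.63%. The difference between both contrasts was called for 140 genes (1.03%) by an interaction term, among them 12 of the 19, or 11 of 18 without *Itga1*. The 19 genes were chosen by their LM difference, which enters the interaction, so the choice by itself raises this share above that of all genes. LM were digested with Liberase while MFL was mashed through a filter, so the site and the way the tissue was dissociated cannot be told apart.

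**Figure D2:**
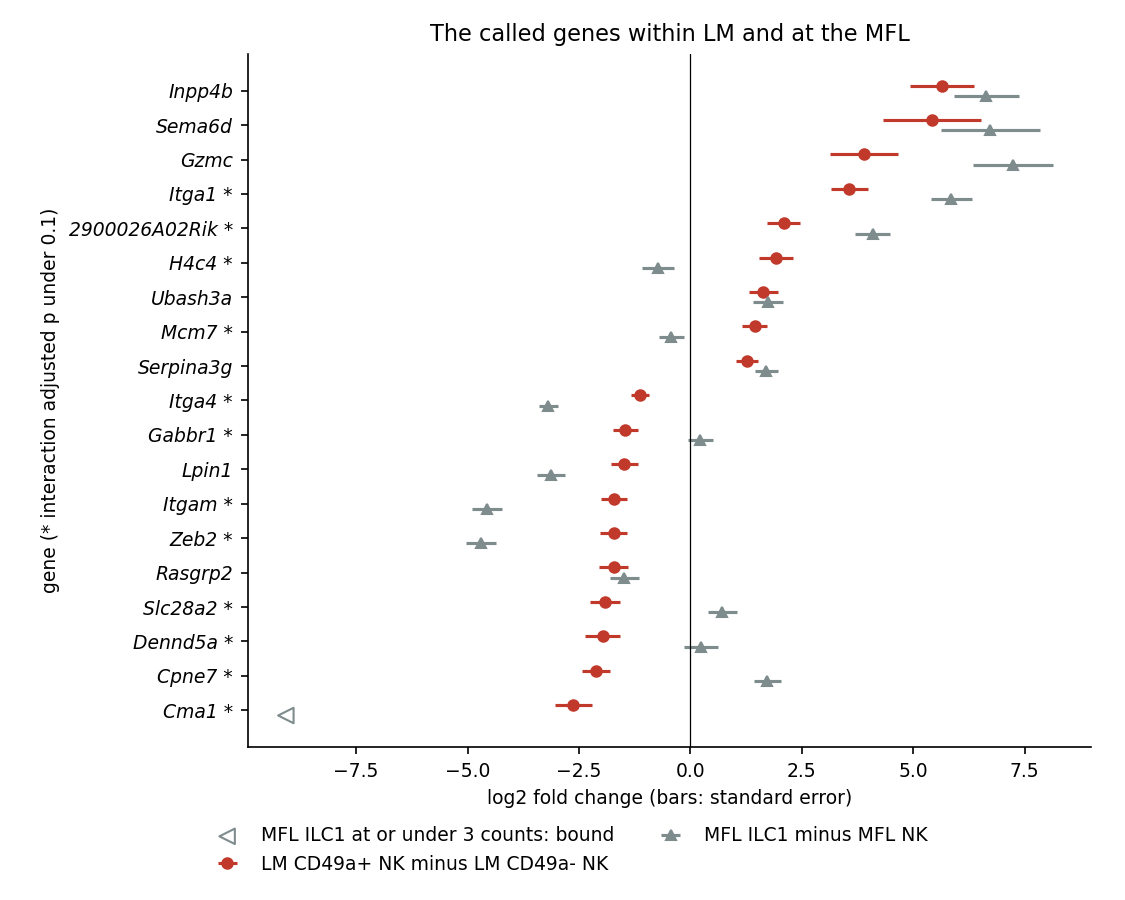
Log2 fold change ± SE of the 19 genes between the CD49a+ and CD49a- NK cells of LM and between MFL ILC1s and MFL NK cells, with 3 samples per population. Of the genes on opposite sides of 0 in the contrasts (H4c4, Mcm7, Gabbr1, Slc28a2, Dennd5a and Cpne7), Cpne7 was called in both, an asterisk marks a called interaction, and the MFL value of Cma1 is drawn at its bound because it had at most 1 count in any ILC1 sample.

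The interaction set the called genes apart in several ways. The integrins and *Zeb2* differed in the same direction at both sites but less within LM. *Zeb2* was at 689, 602 and 728 CPM in MFL NK cells and at 37.1, 28.5 and 11.8 CPM in MFL ILC1s, so both LM populations lay between them (interaction 2.98 ± 0.42, adjusted p = 0.00191). For *Itgam* the interaction was 2.84 ± 0.41 (adjusted p = 0.00231) and for *Itga4* 2.06 ± 0.28 (adjusted p = 0.00114). *Cma1* was at 189, 126 and 95.0 CPM in MFL NK cells and had at most 1 count in any MFL ILC1 sample, which is at least 540-fold higher in MFL NK cells against a floor of 3 counts per sample.

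The replication genes differed within LM and not detectably in MFL. *Mcm7* was at 76.3, 69.8 and 71.7 CPM in MFL NK cells and at 49.3, 51.0 and 60.8 CPM in MFL ILC1s, a log2 fold change of -0.43 that did not pass the test, and the interaction was 1.87 ± 0.40 (adjusted p = 0.0372). The LM CD49a+ samples thus lay above, and the LM CD49a- samples below, every MFL NK sample. *H4c4* was at 83.9, 77.3 and 47.4 CPM in MFL NK cells and at 36.0, 54.2 and 35.7 CPM in MFL ILC1s (interaction 2.65 ± 0.53, adjusted p = 0.026).

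*Cpne7* and *Slc28a2* went the other way. *Cpne7* was at 89.1, 54.4 and 69.0 CPM in MFL NK cells and at 281, 186 and 233.5 CPM in MFL ILC1s, where it was called higher (log2 fold change 1.72 ± 0.30, adjusted p = 0.00254). The interaction was -3.84 ± 0.43 (adjusted p = 0.000207), and the LM CD49a+ samples were the lowest of the 12. *Slc28a2* was at 90.8, 112 and 129 CPM in MFL NK cells and at 204, 164 and 178 CPM in MFL ILC1s, a difference of 0.72 that did not pass the test on its own, while the interaction was -2.63 ± 0.48 (adjusted p = 0.0148). *Gabbr1* had an interaction of -1.68 ± 0.39 (adjusted p = 0.0596) and *Dennd5a* one of -2.19 ± 0.54 (adjusted p = 0.0896). For *Serpina3g*, *Inpp4b*, *Gzmc*, *Sema6d*, *Ubash3a*, *Rasgrp2* and *Lpin1* the interaction did not pass the test.

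The genes called in MFL were then followed within LM. Of the 188 genes higher in MFL ILC1s, 141 had a fold change above 0 in LM and 44 below 0, with a median of 0.44 in LM against 1.98 in MFL. Of these 188 genes, 40 (21.3%) had every CD49a+ sample above every CD49a- sample, against 5.72% of all genes tested, and 7 (3.72%) the reverse, against 4.1%. Of the 228 genes lower in MFL ILC1s, 186 were below 0 and 42 above 0 in LM, with a median of -0.49 in LM against -2.08 in MFL, and 59 (25.9%) had every CD49a+ sample below every CD49a- sample. The interaction was called for 46 of the 188 and 75 of the 228 genes, and in each of these the LM difference was the smaller or the opposite one. Genes were chosen here by their MFL values, which by itself makes the MFL median the larger. Genes with at most 3 counts in every sample of one population, 17 of the 188 in LM, left both LM medians at 0.44 and -0.49 when set at their bounds.

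**Figure D3:**
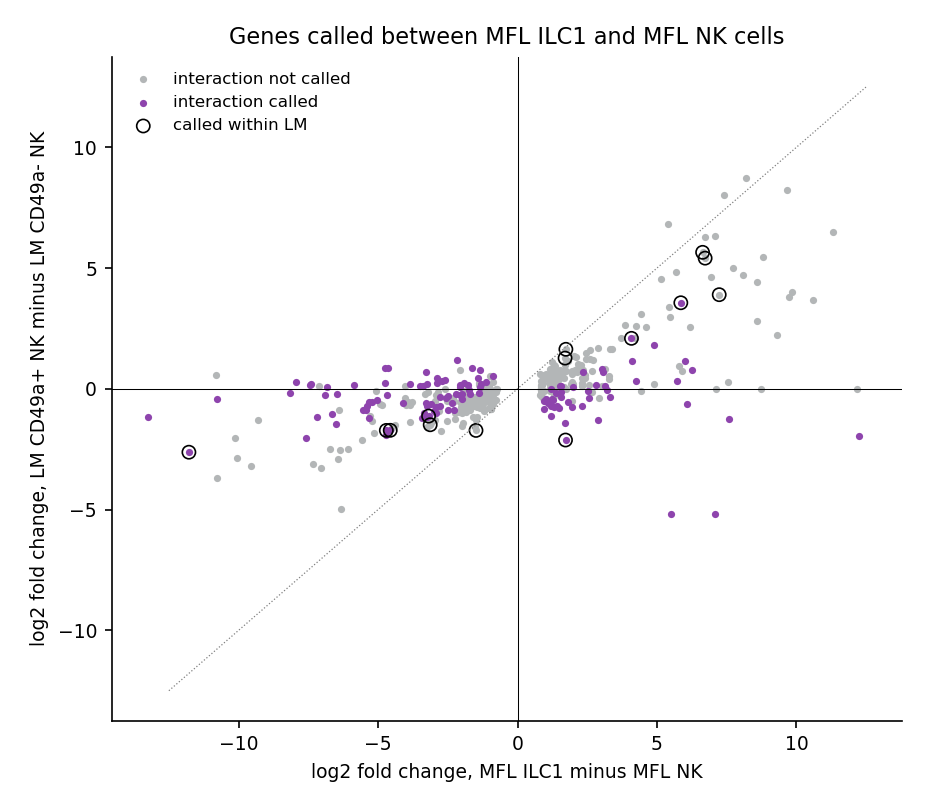
Log2 fold change between LM CD49a+ and CD49a- NK cells against that between MFL ILC1s and NK cells for the 188 genes called higher and the 228 called lower in MFL, one point per gene, purple where the interaction was called and ringed where the gene was called within LM; the dotted line marks equal values. Most points lie on the same side of 0 on both axes and nearer to 0 on the LM axis, where the medians were 0.44 and -0.49. Genes with almost no counts in one population have fitted values that depend on the method.

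The gene groups are described next by the number of members that moved, and the reference for each is that 6867 of all genes tested lay above 0 and 6566 below, with a median log2 fold change of 0.01. Of all genes tested, 5.72% had every CD49a+ sample above every CD49a- sample and 4.1% the reverse, 5.92% lay higher and 5.69% lower at an unadjusted p under 0.05, and DESeq2 called 2.09% higher and 1.91% lower. These shares are the reference for the counts of members below. Where no member passed the test in edgeR, the number at an unadjusted p under 0.05 and the number called by DESeq2 are given, and limma-voom called none of any list. Of 78 genes for cytosolic ribosomal proteins, 77 lay above 0 and 1 below, with a median of 0.66. None passed the test, 29 lay higher at an unadjusted p under 0.05 and 6 were called higher by DESeq2, and 20 (25.6%) had every CD49a+ sample above every CD49a- sample. *Rplp0*, a protein of the ribosomal stalk, was at 1966, 1339 and 1231 CPM in CD49a+ and at 800.0, 932 and 1023 CPM in CD49a- NK cells. The summed ribosomal protein transcripts were at 55320, 39930 and 31940 CPM against 19200, 29570 and 34160 CPM, so the populations overlapped and CD49a- replicate 3 reached above the lowest CD49a+ sample. Without CD49a+ replicate 1 the list median was 0.36, with 66 members above 0 and 12 below, and without CD49a- replicate 1 it was 0.44.

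Cell cycle genes were read in 3 lists. Of 53 genes of the G2/M phase, 45 lay above 0 and 8 below with a median of 0.84, none passed the test (14 higher unadjusted, 7 by DESeq2), and 15 (28.3%) had all CD49a+ samples above all CD49a- samples. Their summed level was 4215, 3341 and 3818 CPM in CD49a+ and 2497, 2764 and 2588 CPM in CD49a- NK cells, without overlap. *Cenpe*, a kinetochore motor, was at 44.4, 55.5 and 57.0 CPM against 3.23, 18.5 and 12.4 CPM (log2 fold change 2.20 ± 0.65, adjusted p = 0.286), and *Cenpf* was at 108, 57.8 and 109 CPM against 39.9, 18.3 and 21.4 CPM. *Mki67*, which encodes the proliferation marker Ki-67, overlapped between the populations at 612, 331 and 667 CPM against 396, 374 and 179 CPM (log2 fold change 0.76 ± 0.35, adjusted p = 0.422). *Cenpe* and *Cenpf*, like the other uncalled genes given with values in these paragraphs, include some chosen after their values were seen.

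The S phase list was split, with 28 of 43 genes above 0 and 15 below, a median of 0.17, and *Mcm7* its only called member. Of the list, 3 members (6.98%) had every CD49a+ sample above every CD49a- sample and 3 (6.98%) the reverse. Of the other MCM helicase genes, *Mcm5* was at 126, 87.3 and 94.8 CPM against 42, 82.5 and 43.5 CPM. *Mcm4* was at 119, 96.3 and 121 CPM against 90.4, 65.4 and 75.5 CPM. Neither passed the test (adjusted p = 0.375 for *Mcm5*), although neither overlapped. *Mcm6* did overlap, at 242, 245 and 215 CPM against 193, 216 and 196 CPM (log2 fold change 0.22 ± 0.21, adjusted p = 0.764). Of 63 replication-dependent histone genes, 50 lay above 0 and 13 below with a median of 0.85, *H4c4* was called, and 11 (17.5%) did not overlap. With 3 members that had at most 3 counts in every sample of one population set at their bound, the median was 0.81. *H2ac6* was at 54.3, 75.6 and 92.5 CPM against 34.9, 33.9 and 32.9 CPM (log2 fold change 1.13 ± 0.38, adjusted p = 0.349), its CD49a- samples being almost equal. *H1f5* was at 222, 55.5 and 54.4 CPM against 8.91, 44.1 and 47.3 CPM, so 1 sample of each population lay far from the other two. Without both replicate 2 samples, the counts were 45 above and 8 below for G2/M, with a median of 1.276, and 40 above and 23 below for histones. The histone median was 0.50, with 42 members above 0 and 21 below, without CD49a+ replicate 2 alone. The S phase median ranged from 0.087 without CD49a- replicate 1 to 0.63 without CD49a- replicate 2, and was 0.33 without CD49a+ replicate 3 and 0.54 without both replicate 2 samples.

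**Figure D4:**
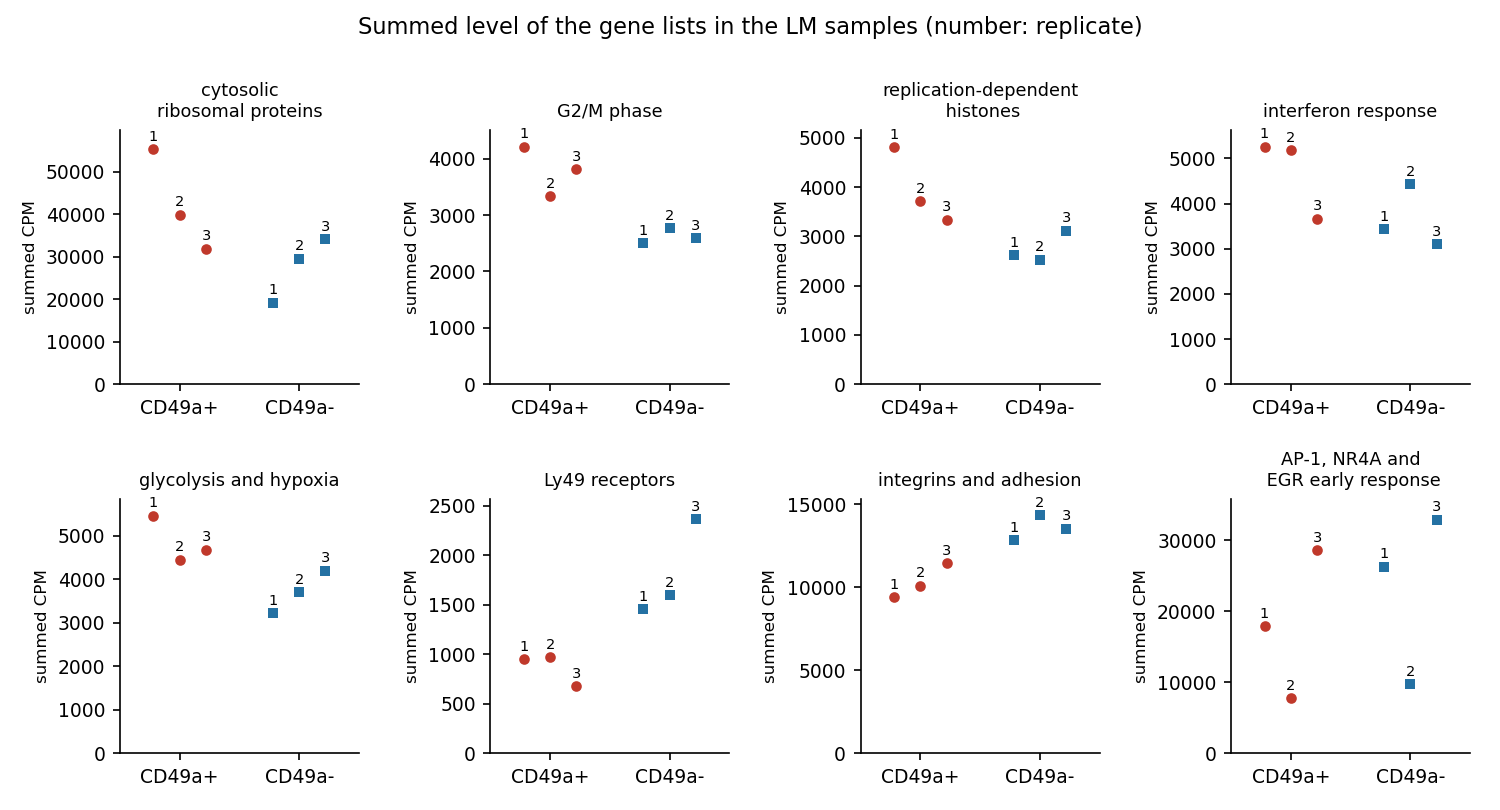
Summed CPM of gene lists in each of the 3 LM CD49a+ and 3 LM CD49a- NK cell samples, one point per sample. The G2/M, histone and integrin sums do not overlap between the populations, whereas the ribosomal protein, interferon response and early response sums do.

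Of 52 interferon response genes, 46 lay above 0 and 6 below, with a median of 0.47 and none called (10 higher unadjusted, 6 by DESeq2), and 11 (21.2%) had every CD49a+ sample on top. *Dtx3l*, a ubiquitin ligase of the interferon response, was at 176, 228 and 153 CPM against 91.8, 84.1 and 101 CPM (log2 fold change 1.01 ± 0.23, adjusted p = 0.151). *Rsad2*, which encodes viperin, was at 43.4, 36.2 and 22.2 CPM in CD49a+ NK cells and was listed at 0 in 2 CD49a- samples and at 2.68 CPM in the third. *Ly6e* was at 508, 409.6 and 303 CPM against 134.5, 294 and 128 CPM, where the CD49a+ minimum was only slightly above the CD49a- maximum. The chemokine gene *Cxcl10* was at 56.4, 24.7 and 40.8 CPM against 2.90, 0 and 17.9 CPM. The list median was 0.24 without CD49a+ replicate 1, with 36 members above 0 and 16 below, 0.72 without CD49a+ replicate 3 and 0.91 without CD49a- replicate 2; 13 members lay below 0 without CD49a+ replicate 2 or without CD49a- replicate 3. It was 0.79 in limma-voom and 0.71 without both replicate 2 samples.

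Genes of energy metabolism lay mostly above 0. Of 35 genes of glycolysis and hypoxia, 30 were above and 5 below, with a median of 0.46, none called (6 higher unadjusted, 1 by DESeq2) and 5 (14.3%) without overlap. *Gapdh* was at 755, 559 and 396 CPM against 245, 324.5 and 225 CPM (log2 fold change 1.11 ± 0.24, adjusted p = 0.133), and *Ldha*, which makes lactate from pyruvate, at 353, 334 and 245 CPM against 194, 159.9 and 172 CPM. The list median was 0.25 without CD49a- replicate 1, with 25 members above 0 and 10 below, and 0.30 without CD49a+ replicate 1, with 22 above and 13 below. Of 78 nuclear genes of oxidative phosphorylation, 62 were above and 16 below with a median of 0.44 and none called (7 higher and 1 lower unadjusted, 3 higher by DESeq2), and 8 (10.3%) did not overlap. Their median was 0.27 without CD49a+ replicate 1 and 0.71 without CD49a- replicate 3. Of 12 genes encoded in the mitochondrial genome, 3 were above and 8 below, and none was called by edgeR, unadjusted or by DESeq2. Without CD49a+ replicate 2, CD49a- replicate 1 or CD49a- replicate 3, 8 of them lay above 0 and 3 below.

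**Figure D5:**
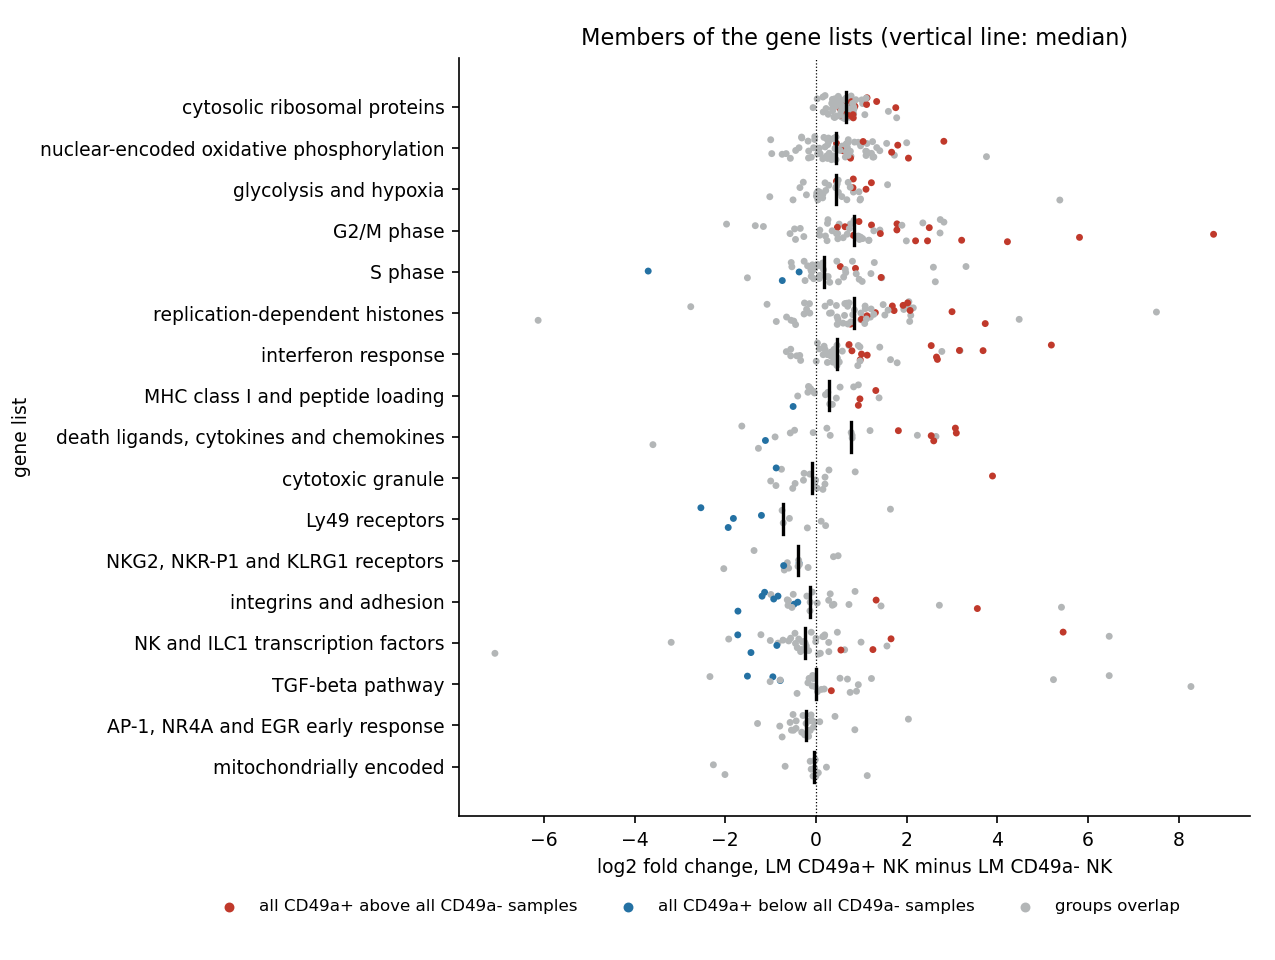
Log2 fold change between LM CD49a+ and CD49a- NK cells of every tested member of the gene lists, one point per gene with the list median as a vertical line, red where every CD49a+ sample lay above every CD49a- sample and blue for the reverse. Ribosomal protein, G2/M, histone and interferon response genes lie mostly above 0, with medians of 0.66, 0.84, 0.85 and 0.47, and Ly49 receptor genes mostly below 0, with a median of -0.72.

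The lectin-like receptor families of NK cells lay mostly on the other side. Of 11 Ly49 genes tested, 3 lay above 0 and 8 below with a median of -0.72, none passed the test (5 lower unadjusted, 3 by DESeq2), and 4 (36.4%) had every CD49a+ sample below every CD49a- sample. *Klra10* was at 8.52, 15.4 and 0.996 CPM against 32.1, 61.5 and 51.4 CPM (log2 fold change -2.54 ± 0.72, adjusted p = 0.28). *Klra13-ps*, a transcribed pseudogene counted in this list, was at 71.6, 170.0 and 99.9 CPM against 463, 183 and 658 CPM. *Klra7* and *Klra3* overlapped, *Klra7* at 231, 207 and 152 CPM against 81.1, 259.6 and 204 CPM. Summed over the list, Ly49 transcripts were at 953, 968 and 675 CPM against 1452, 1596 and 2362 CPM, without overlap. The Ly49 genes are close paralogs, so the split of reads among them is uncertain and the sum does not depend on it. The list median was -0.36 without CD49a+ replicate 3 and -1.16 without both replicate 2 samples. Of 13 NKG2, NKR-P1 and KLRG1 genes, 2 lay above 0 and 11 below, with a median of -0.39 and none called (1 higher and 2 lower unadjusted, 1 lower by DESeq2).

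Of 29 integrin and adhesion genes, 12 lay above 0 and 17 below, and 7 (24.1%) had all CD49a+ samples below all CD49a- samples. *Itgam* and *Itga4* were called lower. The only member called higher was *Itga1*, whose protein defined the gate. *Itgb2*, the β2 chain that pairs with *Itgam* and *Itgal* products, was at 516, 599 and 735 CPM against 907, 931 and 1462 CPM (log2 fold change -0.84 ± 0.24, adjusted p = 0.281). *Itgal* was at 840.5, 1018 and 959 CPM against 1164, 1496 and 1053 CPM. *Adgre5*, which encodes the adhesion receptor CD97, was at 422, 509.6 and 732 CPM against 1209, 857 and 1101 CPM. *Itgb1*, whose product pairs with both CD49a and CD49b, overlapped at 1057, 1155 and 1207 CPM against 734, 1296 and 780.4 CPM.

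Cytotoxic granule genes were divided, with 7 of 18 above 0 and 11 below and *Gzmc* the only called member. The split turned with single samples, to 11 above and 7 below without CD49a- replicate 3 and to 10 and 8 without CD49a- replicate 2. *Prf1*, which encodes the pore-forming perforin, was at 491, 629.6 and 748.5 CPM against 865, 1214 and 1349 CPM (log2 fold change -0.87 ± 0.24, adjusted p = 0.28). *Gzma* and *Gzmb* overlapped, *Gzmb* at 1266, 962 and 1036 CPM against 1643, 1188 and 1817 CPM. Of 21 genes for death ligands, cytokines and chemokines, 13 lay above 0 and 8 below and none was called (4 higher and 4 lower unadjusted, 2 and 3 by DESeq2). *Ccl5*, a chemokine of cytotoxic lymphocytes, was at 499, 873 and 1133 CPM against 1555, 1769 and 2092 CPM (log2 fold change -1.11 ± 0.30, adjusted p = 0.27), whereas *Tnfsf8*, the ligand of CD30, was at 15.3, 11.6 and 9.37 CPM against 1.34, 0.111 and 2.76 CPM. *Ifng* overlapped, at 203, 59.2 and 161 CPM against 282, 48.4 and 254 CPM, with both replicate 2 samples lowest.

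Of 24 cytokine receptor genes, 12 lay on each side of 0 and none was called (1 lower unadjusted and by DESeq2). *Il18rap*, the accessory chain of the receptor for IL-18, narrowly missed the threshold at 448, 420.4 and 700.5 CPM against 1319, 970.1 and 1472 CPM (log2 fold change -1.26 ± 0.26, adjusted p = 0.104). Of 26 TGF-β pathway genes, 13 lay on each side and none was called (3 higher and 3 lower unadjusted, 3 lower by DESeq2). The even split rested on single samples, with 20 above and 6 below without CD49a- replicate 3, 17 and 9 without CD49a+ replicate 2, and 11 and 15 without CD49a+ replicate 3. *Tgfbr2* was at 194, 236.5 and 233 CPM against 151, 189.9 and 183 CPM, and *Smad4*, the shared partner of receptor-activated SMADs, at 61.7, 65.3 and 54.0 CPM against 131, 117 and 101 CPM (log2 fold change -0.95 ± 0.27, adjusted p = 0.28). Of 34 SOCS, JAK-STAT and PI3K regulators, 13 lay above 0 and 21 below, with *Inpp4b* called. *Tyk2*, the kinase of the IL-12 and type I interferon receptors, was at 161, 165 and 155 CPM against 278, 249.9 and 322 CPM.

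Of 43 transcription factors of NK cells and ILC1s, 17 lay above 0 and 26 below, and *Zeb2* was the one called member. *Tox* was at 26.8, 34.9 and 23.2 CPM against 50.7, 137.5 and 41.1 CPM (log2 fold change -1.43 ± 0.39, adjusted p = 0.28), with CD49a- replicate 2 far above the rest. In MFL, *Tox* was at 38.1, 47.4 and 51.5 CPM in NK cells and at 151, 160.1 and 133 CPM in ILC1s, and the interaction was -3.13 ± 0.56 (adjusted p = 0.0125). *Zfp683*, which encodes the residency factor Hobit, was at 8.81, 0.391 and 0.797 CPM in CD49a+ NK cells and had at most 1 count in any CD49a- sample. Its level in CD49a+ NK cells rested on replicate 1. Of 17 genes of tissue residency and egress, 12 lay above 0 and 5 below, and none was called (5 higher and 2 lower unadjusted, 3 and 1 by DESeq2); without CD49a+ replicate 1, 9 lay above and 8 below. *Cxcr3*, the chemokine receptor for the CXCL9 and CXCL10 ligands, was at 29.3, 60.7 and 20.8 CPM against 5.35, 22.8 and 6.14 CPM (adjusted p = 0.334), with overlapping populations. *Nt5e*, which encodes the ectoenzyme CD73, was at 81.1, 52.4 and 96.5 CPM against 35.8, 17.8 and 24.0 CPM (log2 fold change 1.57 ± 0.46, adjusted p = 0.283).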

How the data were processed

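The authors trimmed the total RNA reads (SMARTer Stranded Total RNA-Seq v2 Pico kit) with Trim Galore, quantified them with Salmon 1.5.0 on a decoy-aware index (k of 31) of GENCODE M27 (GRCm39), and summarized transcripts to genes with tximport; they deposited estimated counts. These were rounded to whole numbers here. Genes were named from GENCODE M39 (53700 of 54309 matched); promoters are RefSeq, GRCm38.p6. Samples were grouped by the cell population in their labels, because the titles of the CD49a+ NK samples call them ILC1. Genes passing filterByExpr (13594) were fitted with edgeR 4.0.16 (TMM, quasi-likelihood) in R 4.3.3 over 12 samples and 4 groups, with Benjamini-Hochberg adjustment at the study's threshold of 0.1. The SE is the absolute log2 fold change divided by the square root of F, an approximation. Alternatives were RLE size factors, no filter, DESeq2 1.42.0, limma-voom (limma 3.58.1) with sample weights, a replicate block, the 6 LM samples alone, each LM sample left out, and an adjusted p under 0.05; leaving out both LM replicate 2 samples was chosen after seeing the data. S and G2/M lists came from Seurat 5.3.0. Scripts were tested on simulated data. The genes named were the sort and NK genes, up to 12 called protein-coding genes per direction with at least 5 CPM and no overlap between populations, called members and the 3 most abundant members of each list, and the top member of each cell type list; others were chosen after their values were seen. The members and lists were chosen with earlier results of these data known.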

Additional observations from a re-analysis of the deposited data

Results flagged for a closer look

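For 26 of the genes examined, the difference between CD49a+ and CD49a- cells within LM differed from that between ILC1s and NK cells in MFL by an interaction term of the same edgeR fit (LM minus MFL difference, log2 scale, adjusted p under 0.1). Site, dissociation and the CD49b gate of the CD49a+ cells cannot be told apart in this term. For genes with fitted differences below 0 at both sites and nearer to 0 in LM, it was 2.98 for Zeb2, 2.84 for Itgam, 2.06 for Itga4, 2.04 for Itga2, 1.63 for Prf1, 2.22 for Klf2, 2.77 for Klra13-ps, 4.58 for Eomes, 5.55 for Cmklr1 and 9.16 for Cma1. The sizes for Cmklr1 and Cma1 rest on MFL ILC1 samples with almost no counts and are not bounds. Itga1, 2900026A02Rik and Cd7 had fitted differences above 0 at both sites, nearer to 0 in LM, with interactions of -2.29, -2.0 and -2.23. 6 genes of the cell cycle and of chromatin had fitted differences above 0 in LM and below 0 in MFL: H4c4 (2.65), H1f5 (3.85), H2ac6 (2.21), H2ac18 (1.69), Mcm7 (1.87) and Mki67 (2.11). The reverse, below 0 in LM and above 0 in MFL, was seen for Cpne7 (-3.84), Tox (-3.13), Slc28a2 (-2.63), Dennd5a (-2.19), Gabbr1 (-1.68), Mxd4 (-1.45) and Slamf7 (-1.44). Of all 13594 genes tested, 140 passed this test. The genes examined were those called for their LM difference, which enters this term, and others, some of them chosen after their values were seen. The 26 are therefore not a share to set against that of all genes.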

How the results depend on the processing

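The number of genes called (9 higher, 10 lower) depended on the setting more than the directions did. It was 104 and 96 with no low-count filter, 284 and 259 with DESeq2, 0 and 0 with limma-voom and sample weights (352 and 394 at an unadjusted p under 0.05), 2 and 1 in the 6 LM samples alone (265 and 204 unadjusted), 43 and 76 without both LM replicate 2 samples (8 and 8 shared with the reported genes), and 3 and 5 at an adjusted p under 0.05. Leaving out 1 LM sample at a time gave 3 to 210 higher and 2 to 57 lower genes; the extremes were without CD49a+ replicate 1 (3 and 2) and without CD49a- replicate 3 (210 and 57). Without CD49a+ replicate 3 the counts were 16 and 17, and without CD49a- replicate 2 they were 27 and 25, and 6 genes were lower without CD49a- replicate 1. The cause was not tested. The MFL comparison gave 416 genes, and 667 with DESeq2 and 2645 with limma-voom. The interaction gave 140 genes, and 264 with no filter, 349 with DESeq2, 90 at an adjusted p under 0.05, and 103 to 256 with 1 LM sample left out. A replicate block gave 13 higher and 11 lower genes, 7 and 9 of them shared; Mcm7 (adjusted p = 0.125), H4c4 (0.105) and Dennd5a (0.105) were not called with the block. Same-numbered samples correlated by 0.021, 0.061 and 0.040 in their deviations, under the limit of 0.1, so the numbers were not taken to pair the samples, although each sample correlated best with its own number, a hint from the data and not from the design. Of the interactions not called, that of Rasgrp2 turned to 0.058 with limma-voom and ranged from -0.69 to 0.073 with 1 LM sample left out, that of Sema6d ranged from -1.95 to 4.48 with 1 LM sample left out (4.48 without CD49a- replicate 3), and that of Ubash3a was 0.23 with limma-voom, ranged from -0.35 to 0.13 with 1 LM sample left out and was 0.27 without both replicate 2 samples; the MFL difference of Gabbr1 was -0.054 with limma-voom. No log2 fold change printed for LM reversed. At this depth and spread, differences of genes with few counts were not resolved.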
